A study of Mus musculus with 10 samples.

Results

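The centromere-proximal regions of the mouse autosomes were taken as the rows of 3 deposited density tables that started below 10 Mb on chromosomes 1 to 19 of the mm9 build. A row is a short stretch of the genome, nearly always 100 bp, and each table lists rows for a different methylation state of lysine 4 of histone H3. There were 1153 such rows in the H3K4me1 table, 1309 in the H3K4me2 table and 1640 in the H3K4me3 table, 4102 in all of the 85618 rows deposited. They were set against the other 79498 rows of the same autosomes. The series studied Dnmt3a2, the short isoform of the DNA methyltransferase Dnmt3a, in mouse embryonic stem cells (J1 line, passages 7 to 10) with the label Dnmt TKO. TKO cells lack Dnmt1, Dnmt3a and Dnmt3b, and all groups carried this background. Cells expressed FLAG-tagged Dnmt3a2 as the WT construct or as 1 of the engineered constructs labelled WWD and R, and chromatin was immunoprecipitated with a FLAG antibody or with an H3K4me3 antibody. The labels list 2 Dnmt3a2 samples per construct, of which 1 is titled bulk, 1 H3K4me3 sample per construct and 1 input sample that was not analysed here.

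Mouse autosomes are telocentric, so the low-coordinate end of each one lies beside the centromere. The centromere itself consists of minor satellite repeats flanked by long arrays of major satellite, which are packed as heterochromatin and are normally densely methylated by the Dnmt enzymes. These arrays are not assembled in mm9, and the rows described here lie in the sequence that follows them. Dnmt3a reads chromatin through its ADD domain, which binds the tail of histone H3 when lysine 4 carries no methyl group. H3K4me3 marks active promoters, and H3K4me1 and H3K4me2 are found at enhancers and around promoters.

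For each construct a table had a single Dnmt3a2 column, and its name fits either of the 2 samples. No comparison therefore had replicates, no test was run, and no p-value is given. The columns stood for 24015095 Dnmt3a2 reads with WT, 17259400 with WWD and 25254320 with R, and for 18801269, 26012284 and 27424019 H3K4me3 reads in the same order. Levels are given as mean reads per row per 10000000 reads of the library total. In the main values the reads of a row were capped at 20, so that a few rows could not set a mean, and values without the cap stand beside them. Intervals of ratios are 95% intervals from the spread over rows, and shares have exact Clopper-Pearson limits. PCR reads are not independent molecules, and neighbouring rows can share a signal, so both kinds of interval are narrower than a replicate experiment would give.

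No row started below 3 Mb on any autosome, and the lowest start was 3015676, on chromosome 9 in the H3K4me1 table. Between 3 and 10 Mb there were 8.67 H3K4me1 rows per Mb, against 10.05 over the rest of the autosomes. The H3K4me2 table had 9.84 rows per Mb there against 11.8, and the H3K4me3 table had 12.3 against 12.99. Autosomes contributed unequally: chromosome 19 held 161, 260 and 330 of the proximal rows in the H3K4me1, H3K4me2 and H3K4me3 tables, and chromosome 11 held 132, 150 and 164. Rows of the H3K4me2 and H3K4me3 tables often marked the same places. Of the proximal H3K4me2 rows, 51.4% (48.7% to 54.2%) lay within 500 bp of an H3K4me3 row, against 46.9% of the other H3K4me2 rows, so the tables are not independent views.

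Mean capped Dnmt3a2 reads at centromere-proximal rows were 0.869 to 1.18 times those of the rest of the autosomes over the 9 combinations of table and construct. At H3K4me1 rows the proximal mean was 0.429 reads per 10000000 in WT against 0.441 at other rows, a ratio of 0.972 (0.835 to 1.13). In WWD the means were 0.921 and 0.848, a ratio of 1.09 (0.983 to 1.20), and in R they were 0.393 and 0.381, a ratio of 1.03 (0.874 to 1.22). H3K4me2 rows gave ratios of 0.998 (0.844 to 1.18) in WT, 1.002 (0.892 to 1.13) in WWD and 1.18 (0.997 to 1.39) in R. H3K4me3 rows gave 1.02 (0.844 to 1.23) in WT, 1.002 (0.892 to 1.13) in WWD and 0.869 (0.706 to 1.07) in R. All of these intervals include 1, which does not show that the levels were equal. The lowest and highest values, 0.869 and 1.18, both belonged to R, in different tables and in opposite directions. An interval from read counting alone was narrower for both, 0.804 to 0.939 and 1.11 to 1.25, since it treats clumped reads as independent. With the proximal rows of each autosome set against its own other rows, these 2 ratios were 0.840 and 1.23.

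Without the cap, the H3K4me1 ratio was 1.955 (0.710 to 5.39) in WT and 2.06 (0.763 to 5.59) in R, while WWD stayed at 1.10 (0.988 to 1.23). At H3K4me2 rows the uncapped ratios were 1.11 (0.883 to 1.39) in WT, 1.02 (0.898 to 1.17) in WWD and 1.22 (1.02 to 1.46) in R. Without rows of 50 or more reads they were 0.984, 0.972 and 1.15, and the interval in R then included 1 (0.970 to 1.36). At H3K4me3 rows the ratios without the cap were 1.02, 1.0005 and 0.869, since no proximal row there held more than 23 Dnmt3a2 reads. The uncapped H3K4me1 values of WT and R rested on 1 autosome: without chromosome 9 they were 0.942 (0.808 to 1.10) and 1.02 (0.849 to 1.22). Without the rows of 50 or more reads anywhere in the table, the uncapped H3K4me1 ratios were 0.958, 1.08 and 1.04 in WT, WWD and R.

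**Figure D1:**
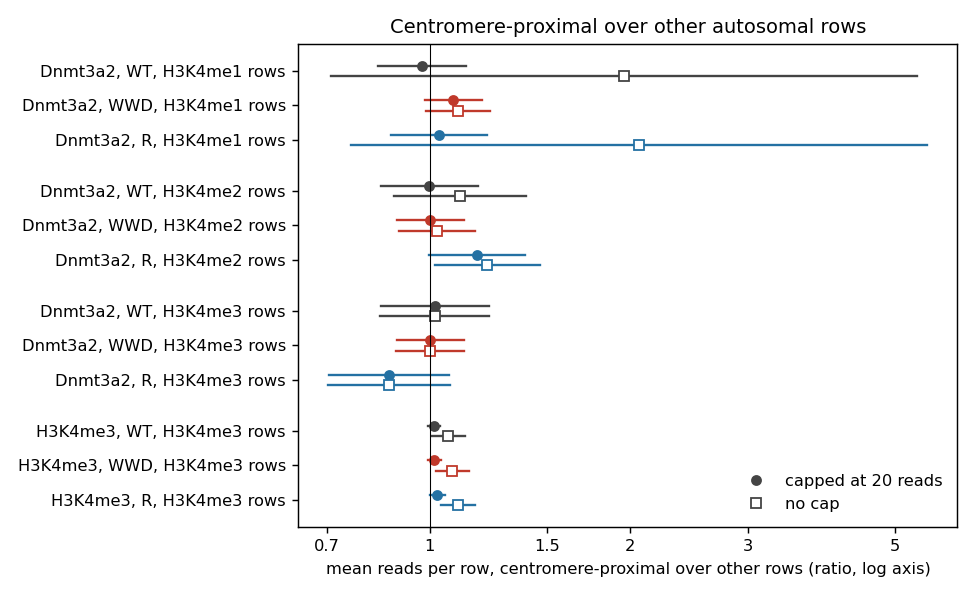
Ratio of mean reads per row at centromere-proximal over other autosomal rows (log axis), for each table, antibody and construct, with reads capped at 20 per row (filled circles) and without the cap (open squares). Lines are 95% intervals over rows. The 9 capped Dnmt3a2 ratios lie between 0.869 and 1.18, and only the uncapped H3K4me1 values of WT and R, 1.955 and 2.06, stand far to the right.

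The share of proximal rows with a Dnmt3a2 read does not depend on how many reads pile up on a row. In WT, 246 of the 1153 H3K4me1 rows held a read, which is 21.3% (19% to 23.8%), with 22.8% over all autosomal rows. In WWD 493 did, or 42.8% (39.9% to 45.7%), with 39.8% over all rows, and the share at the other rows was 39.6%. In R 214 did, or 18.6%, with 18.6% over all rows. At H3K4me2 rows the shares were 16.4% in WT (16.4% over all rows), 31.6% in WWD (29.9%) and 16.2% in R (15.8%). At H3K4me3 rows they were 10.4% in WT (10.1%), 25.9% in WWD (25.8%) and 8.598% in R (7.29% to 10.06%, with 9.94% over all rows). The proximal shares thus followed the order seen elsewhere, with most occupied rows in WWD and fewer occupied rows from H3K4me1 to H3K4me3. The WWD share at proximal H3K4me1 rows was 1.08 (1.01 to 1.16) times that at the other rows, an interval above 1. Without chromosome 3 it was 1.07 (0.995 to 1.15) times, and the interval also reached below 1 without chromosome 4, 6, 7 or 9. Many rows held nothing: 37.0%, 50.4% and 62.0% of the proximal rows of the 3 tables had no Dnmt3a2 read in any construct, and the median row had 0 reads in each.

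In WT and R, a single row carried about as many Dnmt3a2 reads as all other proximal H3K4me1 rows together. At chr9:3015676-3015775, the member with the lowest start, there were 1246 reads with WT, 52 with WWD and 1180 with R. Rounding of the deposited values leaves a doubt of a few reads in the largest counts, 1241 to 1250 in WT. These reads made up 51.6% of all uncapped reads of the proximal H3K4me1 rows with WT, 2.79% with WWD and 50.6% with R. WWD was lower than WT and R, by both reads and depth-adjusted values: WT exceeded WWD 17.2-fold (counting interval 13.05 to 23.2) and R exceeded WWD 15.5-fold (11.7 to 20.9). The 52 reads were still the highest WWD count of the proximal H3K4me1 rows. At the other autosomal rows of the table the highest WWD count was 50. R was 0.901 of WT (0.831 to 0.976). Intervals of single rows cover counting error only and make no allowance for the choice of extreme rows. WWD had the fewest reads at this row, whereas it had the most over the other autosomal rows, and WT was above R at both. On chromosome 9 alone, the proximal over other ratio without the cap was 40.2 in WT, 44.2 in R and 1.961 in WWD, and with the cap it was 1.67, 1.68 and 1.24. Whether the row lies in a repeat was not analysed here.

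The next highest proximal rows included a pair at the start of chromosome 11, where the constructs did not split in this way. At chr11:3077607-3077706 in the H3K4me2 table there were 63 reads with WT, 48 with WWD and 47 with R, and the WT over WWD ratio after depth was 0.943 (0.638 to 1.40). At chr11:3045202-3045301 there were 58, 19 and 34 reads, a WT over WWD ratio of 2.19 (1.29 to 3.90). The third H3K4me2 row of this kind, chr3:8246360-8246459, held 47, 19 and 30 reads, with a WT over WWD ratio of 1.78 (1.02 to 3.21). All 3 constructs therefore had reads at these rows, within about 2-fold of each other after depth. In the H3K4me1 table the next highest rows were far lower. chr13:4560574-4560673 held 13 reads with WT, 18 with WWD and 19 with R, and chr15:9381087-9381186 held 7, 11 and 13. R stood out at chr3:4743727-4743826, with 44 reads against 11 in WT and 1 in WWD.

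**Figure D2:**
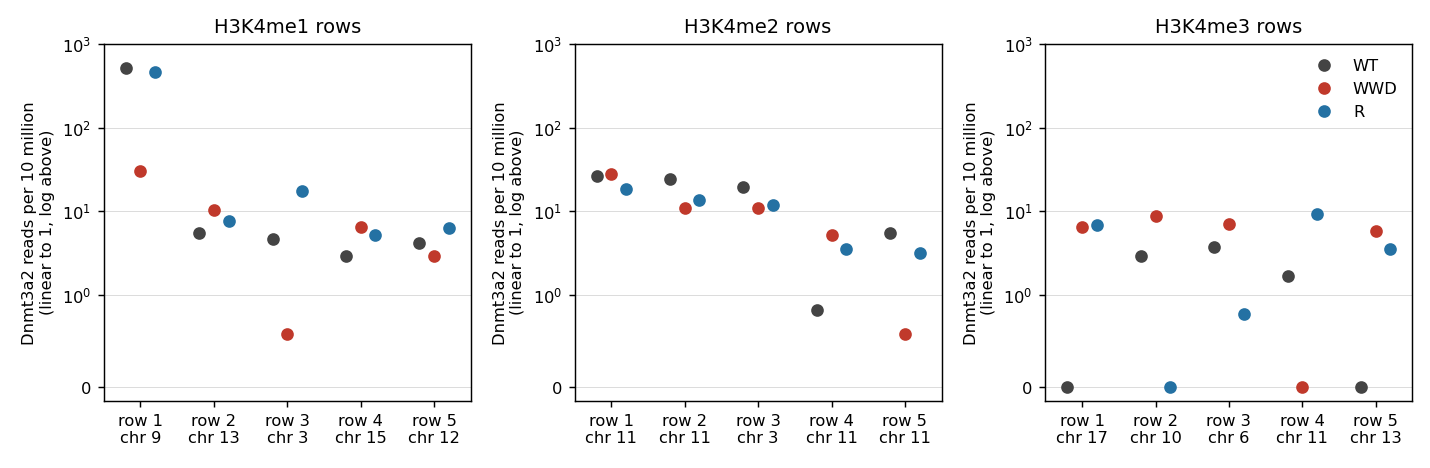
Dnmt3a2 reads per 10000000 in WT, WWD and R at the 5 centromere-proximal rows of each table with the most reads per 10000000 summed over constructs (axis linear up to 1 and logarithmic above). The chromosome 9 row is at 519 in WT, 467 in R and 30.1 in WWD, and no other proximal row reaches 30 in any construct.

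Proximal H3K4me3 rows carried no such pile-up. Ranked by Dnmt3a2 reads per 10000000 summed over the constructs, the highest was chr17:4348699-4348798, at 0 reads with WT, 11 with WWD and 17 with R, followed by chr10:7552073-7552172 with 7, 15 and 0. The largest count of any construct was 23 reads, in R at chr11:5462915-5463014, where WT had 4 and WWD 0. H3K4me3 itself was 110, 102 and 50 reads at chr13:5860974-5861073, where Dnmt3a2 had 0, 10 and 9, and at most 15 reads in any construct at the chromosome 17, 10 and 11 rows just named. At chr6:3133638-3133737, with 9, 12 and 2 Dnmt3a2 reads, there were 84, 19 and 65 H3K4me3 reads. So Dnmt3a2 reads were found at proximal rows with many and with few H3K4me3 reads.

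Elsewhere on the autosomes, rows of 50 or more Dnmt3a2 reads were few. The H3K4me1 table had 5 of them outside the proximal rows, and the highest lay at the opposite end of an autosome, chr19:61300306-61300405, at 135 reads with WT, 28 with WWD and 186 with R. chr17:36621706-36621805 held 57, 1 and 62 reads and chr4:28104072-28104171 held 55, 21 and 69, so WWD was the lowest at these rows too. The exception in the H3K4me1 table was chr12:68160500-68160599, with 18, 50 and 42. In the H3K4me2 table chr3:152364630-152364729 held 64, 2 and 63. The H3K4me3 table had 1 such row, chr19:61275611-61275710, with 21, 48 and 57, and WWD was the highest there after depth. Fewer reads in WWD than in WT and R were thus found at the chromosome 9 row and at several of the highest rows elsewhere. Those rows were in the H3K4me1 and H3K4me2 tables.

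Reads came in small piles at the occupied proximal rows. In the H3K4me1 table an occupied proximal row held a mean of 9.81 reads with WT, 3.78 with WWD and 10.9 with R, against 4.69, 3.70 and 5.27 at other rows, and the chromosome 9 row is included in these means. In the H3K4me2 table the means were 4.82, 3.06 and 5.95 against 4.36, 3.15 and 5.01. In the H3K4me3 table they were 4.17, 3.32 and 4.86 against 4.23, 3.32 and 4.80. By raw counts, WWD therefore had more occupied rows with fewer reads on each, in proximal and other rows alike. These means were not adjusted for depth, and WWD had the smallest Dnmt3a2 library, 17259400 reads against 24015095 in WT and 25254320 in R. They therefore do not show smaller piles in WWD at equal depth.

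Because the 10 Mb limit is a round number, the rows were also followed in bins of 1 Mb. On the 2 sides of the limit, 9 to 10 Mb and 10 to 11 Mb, the share of H3K4me1 rows with a read was 43.0% and 44.0% in WWD, 22.7% and 20% in WT, and 18.8% and 20% in R. In the first 2 bins 48.1% (40.1% to 56.2%) and 47.4% (40.4% to 54.4%) of H3K4me1 rows held a WWD read. The bins from 5 to 10 Mb ran from 35.2% to 44.4%, and 3 of the 5 lay inside both of these intervals. WT gave 24.7% and 15.8% in the first 2 bins. R gave 13.9%, 17.2%, 18.7%, 21.2% and 24.8% through the first 5 bins, and then 17.6% and 18.8%.

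A limit of 5 Mb was an alternative to that of 10 Mb, and 367 H3K4me1 rows started below it. These rows are the first 2 bins, so their values are no separate support for those shares. They held a mean of 1.08 capped WWD reads per 10000000, against 0.846 at rows from 5 to 10 Mb and 0.848 from 10 Mb on. The ratio below 5 Mb to rows from 10 Mb was 1.27 (1.09 to 1.498), and that from 5 to 10 Mb was 0.997 (0.881 to 1.13). With each autosome left out in turn, the first ratio ran from 1.20 without chromosome 2 to 1.34 without chromosome 8, and its interval stayed above 1 each time. It was above 1 in 14 of the 18 autosomes with such rows. The share with a WWD read was 47.7% (42.5% to 52.9%) below 5 Mb and 40.5% (37.0% to 44.0%) from 5 to 10 Mb. WT at the same rows gave 0.853 (0.640 to 1.14) and R gave 1.04 (0.749 to 1.44). WWD at H3K4me2 rows gave 1.15 (0.956 to 1.39), and 1.04 without chromosome 11. WWD at H3K4me3 rows gave 1.02 (0.846 to 1.22). Of 9 such ratios looked at, the one for WWD at H3K4me1 rows had an interval above 1, and whether it differed from the other tables or constructs was not tested.

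**Figure D3:**
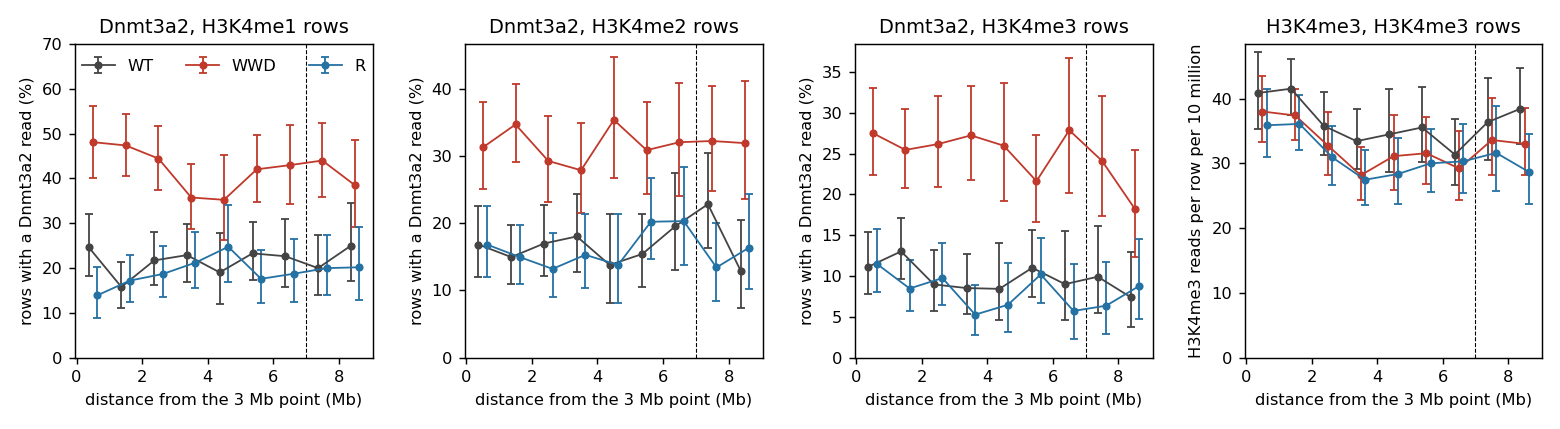
Share of rows with a Dnmt3a2 read (first 3 panels, %, exact 95% intervals) and mean H3K4me3 reads per row per 10000000 (last panel, 95% intervals over rows) in bins of 1 Mb, pooled over the 19 autosomes. The dashed line marks the 10 Mb limit. WWD at H3K4me1 rows begins at 48.1% and 47.4%, and H3K4me3 begins at 40.9 and 41.5 in WT before falling to 35.8.

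Within the proximal rows WWD had the most capped Dnmt3a2 reads of the constructs, as it did elsewhere. WWD over WT was 2.15 (1.81 to 2.55) at proximal H3K4me1 rows and 1.92 (1.85 to 2.00) at the others. It was 1.85 (1.55 to 2.21) against 1.84 at H3K4me2 rows and 2.76 (2.23 to 3.41) against 2.81 at H3K4me3 rows. WWD over R was 2.34 (1.958 to 2.80), 1.49 (1.24 to 1.79) and 3.02 (2.41 to 3.78) in the 3 tables, against 2.23, 1.75 and 2.62. R over WT was 0.916 (0.748 to 1.12) at proximal H3K4me1 rows, 1.24 (1.01 to 1.52) at H3K4me2 rows and 0.915 (0.697 to 1.20) at H3K4me3 rows. The other rows gave 0.862, 1.05 and 1.07. Limited to proximal rows occupied in 2 or 3 of the columns, a filter that uses the reads compared, WWD over WT was 1.28, 1.19 and 1.53 in the 3 tables. WWD over R was then 1.45, 0.923 and 1.45, below 1 at H3K4me2 rows. For each of these 9 construct ratios, the interval of the proximal over the other value included 1. Without the cap, WWD over WT at proximal H3K4me1 rows was 1.07 (0.410 to 2.82), because the chromosome 9 row then enters the WT sum in full.

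Row by row, 386 proximal H3K4me1 rows (33.5%, 30.8% to 36.3%) had a WWD read and no WT read, with 30.3% over all autosomal rows, and 139 (12.1%) had a WT read and no WWD read, with 13.4% over all rows. At H3K4me2 rows these counts were 332 (25.4%, with 24.3% over all rows) and 134 (10.2%, with 10.7%). At H3K4me3 rows they were 374 (22.8%, with 22.6%) and 120 (7.32%, with 6.84%). R without WT was seen at 156, 161 and 120 proximal rows of the 3 tables, or 13.5%, 12.3% and 7.32%, with 13.9%, 12.5% and 8.68% over all rows. WT without R was seen at 188, 164 and 149, or 16.3%, 12.5% and 9.09%, with 18.1%, 13.1% and 8.81% over all rows. The proximal shares were near those of the whole table, and the one whose interval did not include the table's share was WWD without WT at H3K4me1 rows.

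The rows with the largest WWD excess had reads in WWD alone or nearly so. In the H3K4me1 table, chr16:8001732-8001831 held 0 reads with WT, 17 with WWD and 0 with R, and chr17:5021888-5021987 held 0, 12 and 0. In the H3K4me3 table, chr19:6127520-6127619 held 0, 16 and 0 Dnmt3a2 reads with 55, 69 and 119 H3K4me3 reads in WT, WWD and R. The opposite kind also occurred. chr19:9045366-9045465 and chr6:8303631-8303730 in the H3K4me1 table each held 18 WT reads and none of WWD or R, and chr9:3404641-3404740 in the H3K4me2 table held 17, 0 and 0. These rows were picked for their differences, and piles of this size in a single construct occurred in both directions.

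Few proximal rows were occupied in all 3 constructs. There were 27 in the H3K4me1 table, or 2.34% (1.55% to 3.39%), against 2.02% of the other rows. The H3K4me2 table had 24, or 1.83% (1.18% to 2.72%), against 1.15% (1.03% to 1.29%) of the others. The H3K4me3 table had 8, or 0.488% (0.211% to 0.959%), against 0.479%.

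Single autosomes scattered widely around the pooled values, with few proximal rows behind each. Over the 19 autosomes, the capped proximal over other ratio at H3K4me1 rows had a median of 0.940 in WT (range 0.563 to 2.04), 1.11 in WWD (0.657 to 1.75) and 1.10 in R (0.231 to 2.63). The number of autosomes above 1 was 8, 12 and 10. At H3K4me2 rows the medians were 0.916, 0.958 and 1.11, with 6, 9 and 14 autosomes above 1. At H3K4me3 rows they were 0.971, 0.961 and 0.847, with 9, 8 and 6. Chromosome 3 was above 1 in 9 of its 9 ratios, from 1.08 to 2.11 with a median of 1.69 over 139 proximal rows of the 3 tables. In WWD it gave 1.75 (1.21 to 2.53) at H3K4me1 rows and 1.62 (1.03 to 2.56) at H3K4me3 rows. Without the cap, H3K4me3 at the 45 proximal H3K4me3 rows of chromosome 3 was 0.640 of that at its other rows with WT, 0.758 with WWD and 0.742 with R. With the cap, which cuts most rows of this mark, the ratios were 0.927 (0.804 to 1.07), 0.906 (0.771 to 1.06) and 0.983 (0.828 to 1.17), and these intervals include 1. The part of H3K4me3 in the Dnmt3a2 ratios was not tested. On chromosome 3, 54.3% of proximal H3K4me1 rows had a WWD read against 39.9% of its other rows. Chromosome 9 was above 1 in 7 of 9, from 0.352 to 2.16 with a median of 1.63, and chromosome 10 in 7 of 9 with a median of 1.06. Chromosome 18 was above 1 in 1 of 9, and chromosomes 4, 8 and 17 in 2 of 9. Chromosome 3 was singled out after its values were seen, and its neighbouring rows recur across tables.

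**Figure D4:**
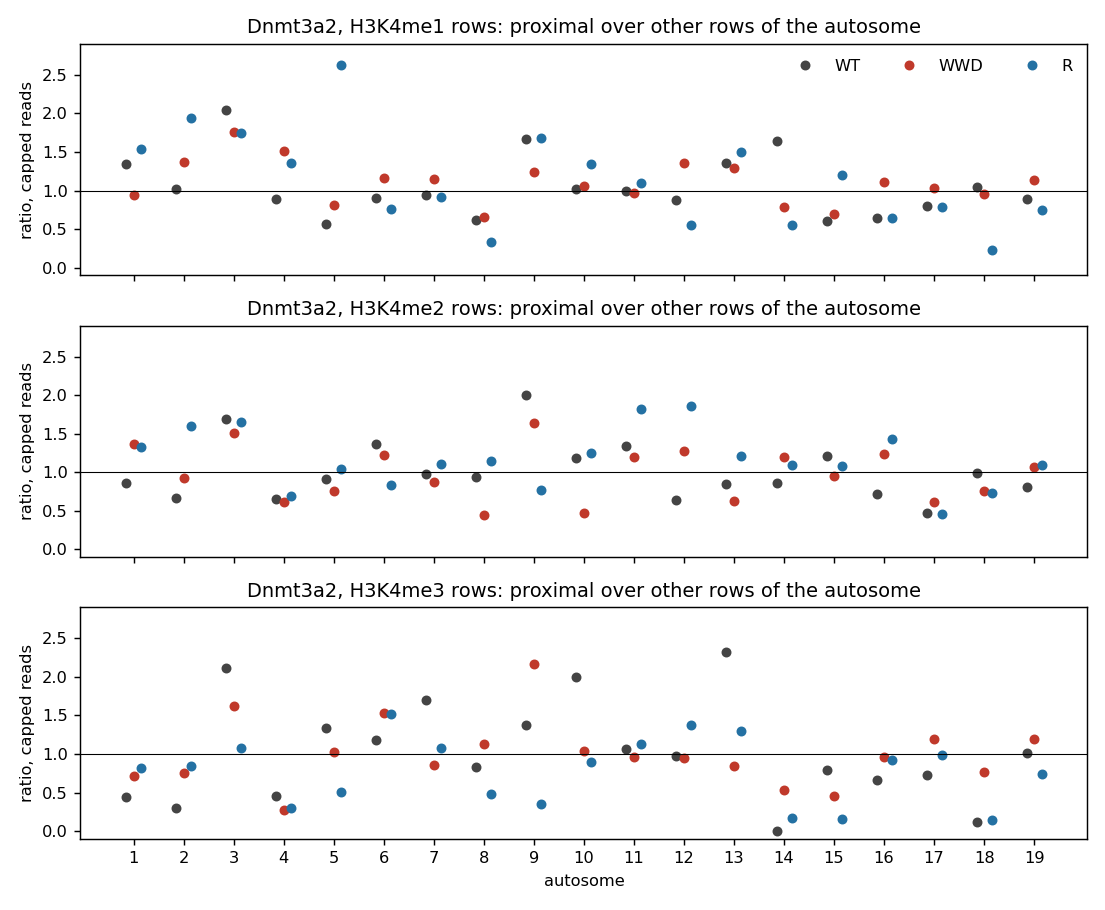
Capped Dnmt3a2 reads per row at proximal rows over the other rows of the same autosome, for each autosome and construct, in the 3 tables. Points scatter on both sides of 1, and chromosome 3 is the autosome with all 9 points above 1, from 1.08 to 2.11.

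H3K4me3, measured in the H3K4me3 table only, was slightly higher at proximal rows in all 3 constructs. Without the cap, the proximal mean in WT was 37.0 reads per 10000000 against 34.7 at other rows, a ratio of 1.07 (1.01 to 1.13). WWD gave 33.3 against 30.8, a ratio of 1.08 (1.02 to 1.14), and R gave 31.9 against 29.0, a ratio of 1.10 (1.04 to 1.17). The median row was also higher, at 23.9 against 22.3 in WT, 21.9 against 19.99 in WWD and 20.8 against 17.5 in R. With 1 autosome left out at a time, the uncapped ratios fell to 1.01, 1.03 and 1.06 at the lowest in WT, WWD and R. Taken singly, 10, 11 and 11 of the 19 autosomes had an uncapped ratio above 1. With the cap of 20 reads, which cuts most rows of this mark, the ratios were 1.02 (0.994 to 1.04), 1.02 (0.993 to 1.04) and 1.03 (0.999 to 1.05). The share of proximal rows with an H3K4me3 read was 91.9% in WT, with 91.9% over all rows. It was 89.2% in WWD, with 88% over all rows, and 84.0% (82.2% to 85.8%) in R, with 82.1% over all rows.

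The H3K4me3 difference was found at the rows below 5 Mb. At the 617 H3K4me3 rows below 5 Mb the mean was 41.2 with WT, 37.7 with WWD and 36.0 with R, and the ratios to rows from 10 Mb were 1.19 (1.09 to 1.298), 1.22 (1.12 to 1.33) and 1.24 (1.13 to 1.36). At the 1023 rows from 5 to 10 Mb the ratios were 0.993, 0.996 and 1.02. Below 5 Mb, the interval stayed above 1 in each construct with any autosome left out, and 14 of 19 autosomes were above 1. The 3 libraries were read at the same rows, so they share any feature of those rows. The bins from 3 to 4 Mb and 4 to 5 Mb also held the most H3K4me3 rows of the proximal bins, 287 and 330, against 122 from 9 to 10 Mb.

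The opposite ends of the autosomes differed from the proximal ends in the mark but not clearly in Dnmt3a2. H3K4me3 at proximal rows was 1.19 (1.11 to 1.28) times that of the rows in the last 10 Mb in WT, 1.24 (1.16 to 1.33) in WWD and 1.24 (1.15 to 1.33) in R. The 9 capped Dnmt3a2 ratios of proximal rows to the last 10 Mb had intervals that included 1, except R at H3K4me2 rows with 1.27 (1.04 to 1.54).

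The 5 proximal rows with the most H3K4me3 had 0 WT Dnmt3a2 reads, and 3 of them had none in any construct. Of all proximal H3K4me3 rows, 89.6% had no WT Dnmt3a2 read and 62.0% had none in any construct. Counts from 5 rows therefore cannot show that these rows differed from the rest. At chr17:3084298-3084397 there were 1236 H3K4me3 reads with WT, 1260 with WWD and 1376 with R, with 0, 8 and 0 Dnmt3a2 reads. At chr2:5766105-5766204 there were 552, 791 and 542 with 0, 2 and 8 Dnmt3a2 reads. At chr19:8894118-8894217 (404, 802 and 593), chr11:6376259-6376358 (374, 625 and 663) and chr19:4962406-4962505 (436, 521 and 516), Dnmt3a2 had 0 reads in each construct. Per 10000000 reads, the chromosome 17 row stood at 657 with WT, 484 with WWD and 502 with R. The row at the top of the whole table lay at the other end of chromosome 19, chr19:61275611-61275710, with 2183, 2918 and 2734 H3K4me3 reads and 21, 48 and 57 Dnmt3a2 reads, so high H3K4me3 and Dnmt3a2 reads did occur at the same row there.

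Between constructs, mean proximal H3K4me3 differed about as it did elsewhere. WWD over WT was 0.901 (0.876 to 0.927) at proximal rows and 0.889 at others without the cap, and R over WT was 0.862 (0.834 to 0.891) and 0.835. With the 3.72 reads per 10000000 added as a pseudocount before the log, the log2 difference from WT had a median of -0.11 for WWD and -0.21 for R at proximal rows, and -0.13 and -0.26 at others. More than 2-fold higher H3K4me3 than WT was seen at 134 proximal rows in WWD (8.17%, with 8.38% over all rows) and at 134 in R (8.17%, with 8.91%). More than 2-fold lower H3K4me3 was seen at 245 in WWD (14.9%, with 15.4%) and at 353 in R (21.5%, 19.6% to 23.6%, with 24.8%). Of these shares, the one whose interval did not include the share over all rows was R more than 2-fold lower. The 2-fold counts depended on the pseudocount: with the median of the positive values in its place, WWD passed 2-fold upward at 10 proximal rows and downward at 23, and R did so at 24 and 57.

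The mark varied between autosomes, mostly in the same direction in the 3 libraries. With the cap, 10 autosomes had a proximal over other ratio above 1 in each construct and 6 had one below 1 in each. Without the cap, chromosome 19, which holds the most proximal rows, gave 1.302 with WT, 1.29 with WWD and 1.26 with R, and chromosome 11 gave 1.19, 1.22 and 1.25. Chromosome 17 gave 0.752, 0.687 and 0.802 although it holds the proximal row with the most H3K4me3. Chromosome 14 was lowest, with 0.393, 0.403 and 0.590 without the cap and 0.605, 0.636 and 0.678 with it.

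The low chromosome 14 value came from its first rows. A boundary at 8.6 Mb, chosen after the values were seen, left 26 rows below it with a mean of 3.80 H3K4me3 reads per 10000000 with WT, 3.06 with WWD and 5.55 with R. Their median row held 4, 0 and 0.5 reads, and 10 of the 26 had no H3K4me3 read in any construct, although they are rows of the H3K4me3 table. The highest of them held 25 reads with WT, 47 with WWD and 148 with R. The 15 rows from 8.6 to 10 Mb had means of 28.5, 26.6 and 33.2, close to the 32.7, 29.0 and 26.6 of the 1094 rows from 10 Mb on. Dnmt3a2 reads over all 41 proximal rows of chromosome 14 were 0 with WT, 19 with WWD and 3 with R, of which the 26 first rows held 0, 2 and 0. With 41 rows, these counts cannot show whether Dnmt3a2 was lower there.

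**Figure D5:**
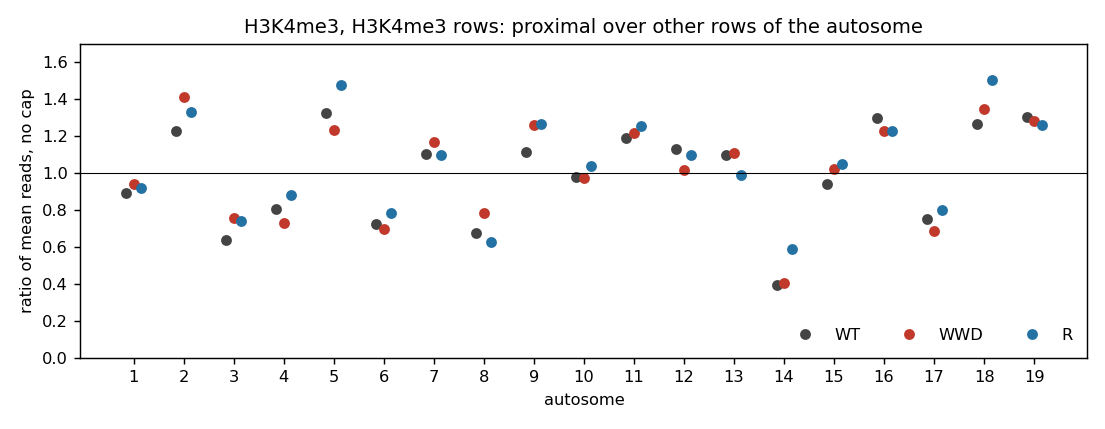
Mean H3K4me3 reads per row at proximal rows over the other rows of the same autosome, without the cap, in WT, WWD and R. The 3 constructs lie near each other within most autosomes, chromosome 14 is lowest at 0.393, 0.403 and 0.590, and chromosome 19 lies between 1.26 and 1.302.

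Dnmt3a2 was finally set against the level of H3K4me3 at the same row. Proximal rows were split at the median over all autosomal rows of H3K4me3 averaged over the constructs, which put 860 above and 780 below. WT Dnmt3a2 at the proximal rows with more H3K4me3 was 0.628 (0.432 to 0.911) of that at the rows with less, with means of 0.140 and 0.224 reads per 10000000. WWD gave 1.01 (0.801 to 1.26), with 0.499 and 0.495, and R gave 0.912 (0.607 to 1.37), with 0.157 and 0.173. At the other autosomal rows the ratios were 0.573 (0.524 to 0.626) in WT, 0.840 (0.798 to 0.885) in WWD and 0.729 (0.667 to 0.797) in R. Proximal rows thus had the WT ratio below 1 that the other rows had, and the proximal WWD and R intervals included both 1 and the value of the other rows.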

How the data were processed

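ChIP-seq of Dnmt3a2 (FLAG) and H3K4me3 was mapped by the submitters with Bowtie on mm9, as their processing notes list. How reads were filtered and rows were defined is not given in the sources. The authors deposited log2 values per row with 2 decimals, and the headers state a read total and an effective total for every column. The values show that a log2 entry adds 1 to the scaled sum of whole reads and a random part smaller than 1. Inverting this gave whole reads. Simulated tables of the same form returned 99.1% to 99.9% of entries exactly where reads were 50 or fewer, and never missed by more than 1 read.

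Centromere-proximal rows were those starting below 10 Mb on chromosomes 1 to 19. These rows, the named rows and the comparisons were chosen with earlier results of these data known. Ratios are mean reads at proximal over other rows, with a cap of 20 reads and without it. Their 95% intervals use rows as the unit, and were added beside the planned exact counting intervals because reads clump. In simulated tables with independent rows, 93% to 97.5% of the row intervals held the known ratio. Depth is the library total of each column, 17259400 to 27424019 reads.

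Rows were named by a rule: those with 100 or more Dnmt3a2 reads, the 5 with the most Dnmt3a2 reads per table, the 5 with the most H3K4me3, and the 3 with the largest differences each way between WWD and WT. Rows below 8.6 Mb on chromosome 14, rows of 50 or more reads elsewhere and single autosomes were chosen after their values were seen. Alternatives covered the 10 Mb limit, the cap, a filter on low values, the pseudocount, the deposited values in place of whole reads, the minimum reads and each autosome left out. The 2 columns that match none of the listed samples were left out, and the input was not analysed here, so no background was subtracted. The rows have no gene names, and the annotation held here uses another build, so rows are given by mm9 position alone and no sequence is shown. Python 3.11.15, numpy 2.4.6, pandas 2.3.3, scipy 1.17.1 and matplotlib 3.10.9 were used.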

Additional observations from a re-analysis of the deposited data

How the results depend on the processing

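Of 1100 values recomputed for 49 results under other settings, 1060 lay inside the main interval (or, for counts of rows, near the main count), some of them on the other side of 1. None of the 855 values with an autosome left out moved beyond the main interval, although without chromosome 9 the uncapped H3K4me1 ratios went from 1.955 to 0.942 in WT and from 2.06 to 1.02 in R. Without the cap, Dnmt3a2 at H3K4me1 rows gave 1.955 in WT and 2.06 in R, and WWD over WT and WWD over R at those rows gave 1.07 and 1.17. H3K4me3 without the cap gave 1.07, 1.08 and 1.10 in WT, WWD and R, with construct ratios of 0.901 (WWD over WT), 0.862 (R over WT) and 1.04 (WWD over R). With the cap of 20 reads these construct ratios were 0.723, 0.643 and 1.12, and a cap of 10 reads gave 0.710 and 0.623 for the first 2. A cap acts on reads before the depth adjustment and cuts most rows of this mark, so capped construct ratios of H3K4me3 partly reflect the library totals. With proximal rows limited to those below 5 Mb and all later rows as the others, WWD at H3K4me1 rows gave 1.27 with the cap and 1.33 without it, a share ratio of 1.20 and a WWD over WT ratio of 2.87. The R share ratio there was 0.849. WWD at H3K4me2 rows gave 1.16 with the cap and 1.22 without it, and the WT share ratio at H3K4me3 rows was 1.21. H3K4me3 gave 1.06, 1.06 and 1.07 with the cap and 1.19, 1.22 and 1.24 without it. Rows occupied in 2 or 3 of the columns, a filter that keeps few rows and uses the reads compared, gave 1.15 for WT at H3K4me1 rows and turned the WWD share ratio there to 0.989. With that filter WWD over WT was 1.28, 1.19 and 1.53 in the H3K4me1, H3K4me2 and H3K4me3 tables, and WWD over R was 1.45, 0.923 (reversed) and 1.45. With the deposited values on a linear scale, which keep the random part smaller than 1, WWD over WT and WWD over R at H3K4me3 rows were 2.03 and 2.15. With the median as pseudocount, the proximal H3K4me3 rows past 2-fold were 10 higher and 23 lower in WWD (134 and 245 before) and 24 higher and 57 lower in R (134 and 353 before). The causes of these shifts were not tested beyond the settings themselves.

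No paired analysis was possible because each construct has 1 column per antibody and the columns carry no replicate numbers. With 1 column per construct, the spread between cultures is unknown, and most rows hold 0 Dnmt3a2 reads, so proximal over other differences of Dnmt3a2 inside the capped interval of each table and construct were not detectable at this depth.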

Other observations

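In the first stretch of rows after 3 Mb, rows of the H3K4me3 table were found on chromosomes 2, 11, 14 and 17 at starts of 3103198 or below, and these were picked after their values were seen. On chromosome 11, the row at 3023751 held 219 H3K4me3 reads with WT, 348 with WWD and 449 with R, and the row at 3103198 held 122, 214 and 308. The row at 3035797 on chromosome 2 held 122, 137 and 64. The chromosome 14 row at 3049152 held 4, 27 and 1, and the chromosome 17 row at 3055127 held 0, 11 and 9, whereas the row at 3084298 on chromosome 17 held 1236, 1260 and 1376. Dnmt3a2 at the chromosome 11 row at 3023751 was 0 reads in WT and WWD and 4 in R.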
